A study of Homo sapiens with 17 samples.

Results

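LNCaP-abl cells were set against LNCaP cells, both treated with a control siRNA (siControl), across all measured genes. LNCaP is a human cell line, long established from a prostate cancer, whose growth depends on androgen. LNCaP-abl (abl) is a subline derived from it that grows without androgen. The members were chosen by their label, as the control-siRNA RNA samples of the 2 lines. They are 2 of the 17 samples of the series and hold 4 RNA libraries, 2 for each line. The abl cells were kept in 10% charcoal-stripped serum, from which most steroids have been removed, and were used at passages 62 to 64. The LNCaP cells were kept in medium with 10% serum that was not stripped and were used at passages 32 to 34. For the experiment itself both lines stood in 5% charcoal-stripped serum with 40 nM siRNA for 3 days. Line, passage number and maintenance medium therefore differ together and cannot be told apart. Each line is a single culture line, and nothing in the labels says that the 2 libraries of a line came from separate cultures. The p-values measure only the spread between libraries of the same line and siRNA, estimated over all 12 RNA libraries of the series. This spread may be technical.

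The same 2 lines were also sequenced after an siRNA against CREB1 (siCREB1), a transcription factor that cyclic AMP activates, and after an siRNA against FOXA1 (siFOXA1), a pioneer factor of prostate epithelium. These groups of 2 libraries each share no library with the siControl groups, so the line difference was measured again in them. They differ from the siControl libraries by their knockdown, and are used here only to show where the line difference was or was not the same.

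As background, androgen drives the secretory genes of the luminal prostate cell, such as KLK3, which encodes prostate-specific antigen. The integrated stress response raises translation of the factor ATF4, which in turn raises genes for amino acid import, amino acid synthesis and redox balance.

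Reads assigned to genes numbered 37314039 and 9092597 in the abl libraries, against 27555950 and 15200856 in the LNCaP libraries. The second abl library is the shallowest of the 12 RNA libraries, in which 1 count stands for 0.111 CPM (counts scaled to a common library total, after TMM scaling). Of 23230 genes, 15550 were tested. The 2 abl libraries differed by a median of 0.0889 on the log2 scale over 14232 genes, and the 2 LNCaP libraries by 0.0962 over 14330 genes. Of 16 blood cell genes, the summed level was 18.4 and 10.0 CPM in abl, against 14.9 and 5.70 CPM in LNCaP, and 3 genes of that list were at 0 in all 4 libraries. The neutrophil receptor CSF3R had 87 and 2 counts in abl, against 76 and 0 counts in LNCaP, so the first library of each line stands apart in it. The part of these blood cell reads in the results was not tested.

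Most tested genes differed between the lines. In edgeR's quasi-likelihood test with Benjamini-Hochberg adjustment, 9896 of 15550 genes passed an adjusted p below 0.05 (63.6%). Of these, 4749 were higher in abl (30.5% of those tested) and 5147 were lower (33.1%). Many of these differences were small. A difference of at least 1 on the log2 scale, a doubling or more, was called for 1691 genes that were higher in abl (10.9%) and 2008 that were lower (12.9%). With genes at 0 in a line set to a bound of 3 counts over that line, these counts were 1687 and 2008. A difference of at least 5 on the log2 scale was called for 149 genes higher and 264 lower in abl. The median over all tested genes was -0.02, also with such genes at their bound. The libraries of the 2 lines did not overlap for 12217 genes (78.6%). In a bulk sample, fewer cells that express a gene and less of its RNA per cell cannot be told apart.

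**Figure D1:**
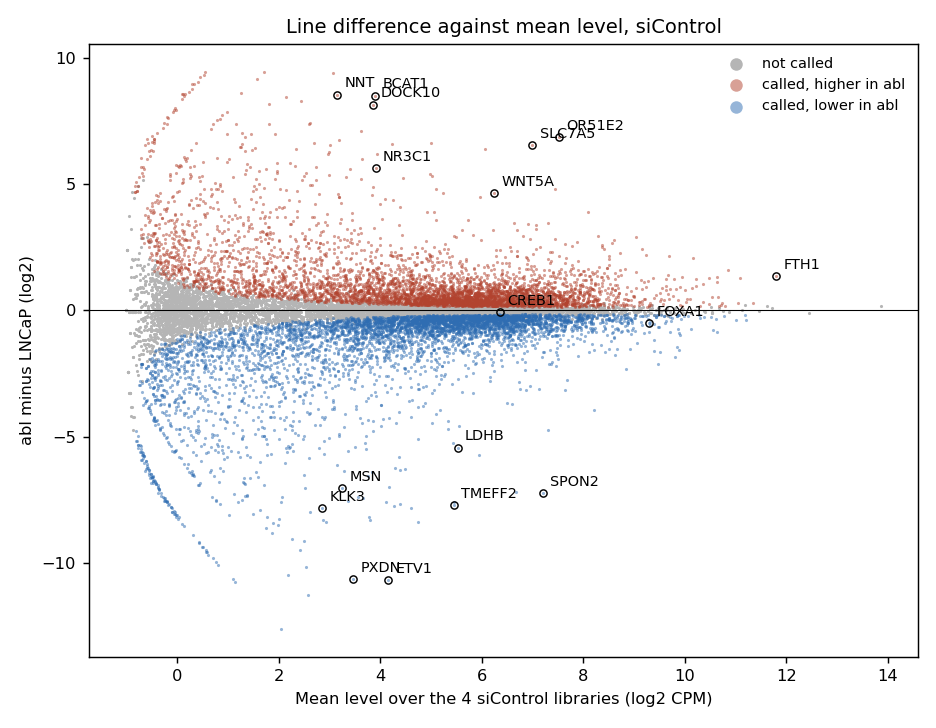
Each point is 1 of the 15550 tested genes, with its mean level over the 4 siControl libraries in log2 CPM on the x axis and abl minus LNCaP on the log2 scale on the y axis. Circles mark 17 named genes, among them FOXA1 at -0.49 and CREB1 at -0.07.

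The line difference was also measured in the knockdown libraries, which set the filter and the estimate of spread together with the siControl libraries. Of the 9896 called genes, 88.1% had the same sign under siCREB1 and 71.4% were also called there in that direction. Under siFOXA1 83.5% had the same sign and 65.9% were also called in that direction. Over all 15550 genes, 61.7% were called in either direction under siCREB1 (31.6% higher, 30.1% lower) and 61% under siFOXA1 (30.2% higher, 30.9% lower). Among the 985 genes that differed by at least 3 on the log2 scale, 93.5% were called in the same direction under siCREB1 and 89.2% under siFOXA1. Of all called genes, 4.19% were called in the opposite direction under siCREB1 and 6.89% under siFOXA1. The line difference itself was tested between siControl and each knockdown, and 25.5% of tested genes passed for siCREB1 and 32.6% for siFOXA1. These 2 tests share the siControl libraries.

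Luminal markers were present in both lines. FOXA1 stood at 556 and 504 CPM in abl, against 799 and 695 CPM in LNCaP, and was lower in abl, with a log2 difference of -0.49 ± 0.08 (SE; adjusted p = 0.000129). CREB1 stood at 78.8 and 79.7 CPM in abl, against 80.97 and 85.3 CPM in LNCaP, and did not pass the test (log2 difference -0.07 ± 0.09, adjusted p = 0.541). The luminal keratins KRT8 and KRT18 were at 288 to 636 CPM in the 4 libraries and lower in abl, with log2 differences of -0.82 ± 0.09 and -0.39 ± 0.07. HOXB13, a homeobox factor of prostate cells, and FOLH1, the prostate-specific membrane antigen, were also lower, by log2 differences of -0.88 ± 0.08 and -0.73 ± 0.06. Luminal markers of the labelled cell type were thus expressed in every library. Of 22 tested luminal genes, 9 were higher and 8 lower in abl, with a median of 0.01 beside -0.02 over all genes. ACPP, the secreted prostatic acid phosphatase, was lower at 178 and 168 CPM in abl, against 500.4 and 514 CPM in LNCaP (log2 difference -1.55 ± 0.13), and its difference was 0.04 under siCREB1 and 2.18 under siFOXA1. AMACR, an enzyme of branched fatty acid oxidation used as a prostate cancer marker, was higher at 177 and 147 CPM in abl, against 49.3 and 37.4 CPM in LNCaP.

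KLK3 was nearly silent in abl. It stood at 0.361 and 0.111 CPM in abl, against 70.6 and 73.9 CPM in LNCaP, a log2 difference of -7.84 ± 0.38 (adjusted p = 4.18e-10), and it was also lower under siCREB1 (-5.27) and siFOXA1 (-6.45). KLK2, a kallikrein that androgen also raises, was low in both lines at 1.19 and 1.00 CPM in abl, against 1.63 and 1.03 CPM in LNCaP, and did not pass the test. Of 32 tested androgen-regulated targets, 10 were higher and 12 lower in abl (31.25% and 37.5%), which is near the 30.5% and 33.1% of all tested genes, and the median was -0.13. The transcription factor MAF stood at 0.833 and 0.446 CPM in abl, against 23.3 and 23.4 CPM in LNCaP, and PMEPA1, an inhibitor of TGF-beta signalling, at 6.31 and 2.01 CPM in abl, against 55.9 and 52.5 CPM in LNCaP. Their log2 differences were -4.95 ± 0.25 and -3.40 ± 0.22. ABCC4, an efflux transporter, was also lower (log2 difference -1.50 ± 0.10). In the other direction, TSC22D3, which glucocorticoids raise as well as androgen, stood at 189 and 184 CPM in abl, against 36.6 and 33.6 CPM in LNCaP (log2 difference 2.41 ± 0.07), with 0.59 under siCREB1 and 0.09 under siFOXA1. The serine protease TMPRSS2 did not pass the test at 88.3 and 68.9 CPM in abl, against 76.7 and 75.3 CPM in LNCaP. Without the second abl library it did, at a log2 difference of 0.22 (adjusted p = 0.0229). The prostate transporter SLC45A3, at 57.7 and 34.9 CPM in abl, against 58.6 and 52.8 CPM in LNCaP, did not pass either, and without the first abl library it did, at -0.66 (adjusted p = 0.00214).

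Genes that androgen lowers in prostate cells were mostly lower in abl as well. Of 16 tested, 10 were lower and 4 higher (62.5% and 25%, beside 33.1% and 30.5% of all tested genes), with a median of -1.52. CAMK2N1, an inhibitor of calmodulin kinase, stood at 29.4 and 31.98 CPM in abl, against 750.0 and 867 CPM in LNCaP, and the sucrase SI at 3.67 and 4.90 CPM in abl, against 55.6 and 52.9 CPM in LNCaP. OPRK1, an opioid receptor, was higher at 540.2 and 515 CPM in abl, against 224 and 193 CPM in LNCaP (log2 difference 1.34 ± 0.07). The UGT2B enzymes of this list, which attach glucuronic acid to steroids, have near-identical copies and their counts are uncertain. Among 19 tested steroid receptor and co-regulator genes, 8 were higher and 6 lower. NR3C1, the glucocorticoid receptor, had the largest difference of this list at 88.4 and 105 CPM in abl, against 2.06 and 1.60 CPM in LNCaP. It was higher by 5.66 ± 0.15 on the log2 scale (adjusted p = 6.71e-13), with 6.58 under siCREB1 and 4.66 under siFOXA1. The coactivator NCOA2 was higher (log2 difference 1.04 ± 0.09) and the demethylase KDM1A was lower (-1.38 ± 0.07). Of 18 tested steroid-metabolising enzymes, 5 were higher and 5 lower, and SRD5A3, a steroid reductase, was higher at 98.8 and 98.1 CPM in abl, against 46.3 and 45.9 CPM in LNCaP (log2 difference 1.10 ± 0.07). CYP1B1, an estrogen hydroxylase, had 83 and 13 counts in abl, against 0 and 0 counts in LNCaP, which makes it at least 30.8-fold higher in abl against a floor of 3 counts over the LNCaP libraries.

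**Figure D2:**
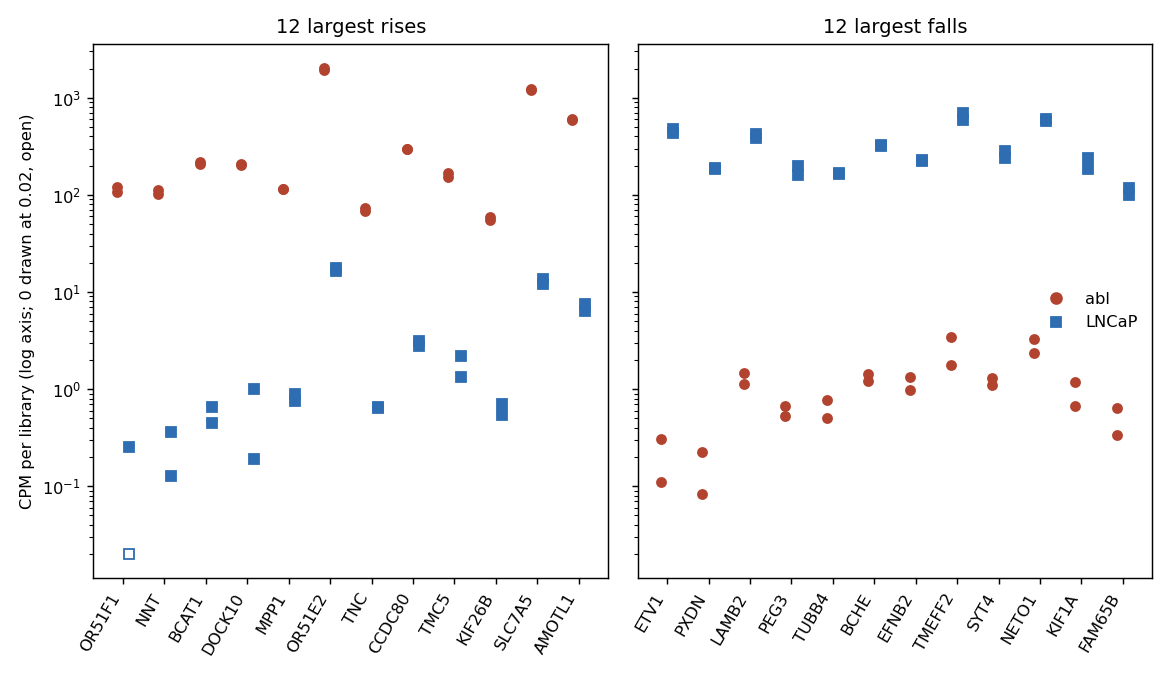
CPM in each library on a log axis, for the 12 largest rises (left) and 12 largest falls (right) among genes whose log2 CPM averaged 3 or more; circles are abl libraries and squares LNCaP libraries. The 24 genes were also chosen for having no overlap between the libraries of the lines. The highest value is 2013 CPM for OR51E2 in abl, and OR51F1 is at 0 in the second LNCaP library.

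The 12 largest rises among well expressed genes held membrane, matrix and metabolic genes, among them the amino acid importer SLC7A5, described with the stress genes. NNT, the mitochondrial transhydrogenase that makes NADPH, stood at 101 and 112 CPM in abl, against 0.361 and 0.128 CPM in LNCaP (log2 difference 8.56 ± 0.20, adjusted p = 2.15e-13). BCAT1, the cytosolic transaminase of branched-chain amino acids, stood at 210.0 and 219 CPM in abl, against 0.650 and 0.448 CPM in LNCaP (log2 difference 8.53 ± 0.18, adjusted p = 1.12e-13). DOCK10 stood at 205 and 206 CPM in abl, against 1.01 and 0.192 CPM in LNCaP (log2 difference 8.16 ± 0.19). These 3 genes were at 1.01 CPM or less in LNCaP and at 101 CPM or more in abl. The odorant receptor OR51E2, which prostate epithelium is known to express, was the most abundant of the 12 at 1909.8 and 2013 CPM in abl, against 16.4 and 17.5 CPM in LNCaP. Its log2 difference was 6.86 ± 0.09 (adjusted p = 6.08e-15), with 6.55 under siCREB1 and 7.12 under siFOXA1. OR51E1, its neighbour in the same family, was lower at 11.6 and 11.03 CPM in abl, against 31.96 and 36.5 CPM in LNCaP (log2 difference -1.58 ± 0.22). OR51F1 had the largest fitted difference (9.42) at 108 and 122 CPM in abl, against 0.253 and 0 CPM in LNCaP. Without the first LNCaP library, which leaves 0 counts in LNCaP, the fitted value was 14.38, so its size is not determined. It lies within the annotated span of MMP26 in RefSeq, so its reads cannot be assigned with certainty. The matrix glycoprotein TNC stood at 68.5 and 74 CPM in abl, against 0.650 and 0.641 CPM in LNCaP (log2 difference 6.77 ± 0.17), and its line difference was smaller under siFOXA1, at 2.65. The secreted matrix protein CCDC80 stood at 294 and 295 CPM in abl, against 3.11 and 2.75 CPM in LNCaP, and the tight junction protein AMOTL1 at 603 and 597 CPM in abl, against 7.51 and 6.41 CPM in LNCaP. The membrane scaffold MPP1, the transmembrane channel-like TMC5 and the kinesin KIF26B had log2 differences of 7.13 ± 0.20, 6.59 ± 0.14 and 6.57 ± 0.18. All 12 were called in the same direction under siCREB1 and siFOXA1.

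The largest falls held an ETS factor, matrix proteins and genes known from neurons. ETV1, the ETS factor whose locus is rearranged in LNCaP, stood at 0.306 and 0.111 CPM in abl, against 436 and 473 CPM in LNCaP. Its 2 abl libraries held 11 and 1 counts, and the log2 difference was -10.71 ± 0.23 (adjusted p = 1.33e-13). PXDN, a peroxidase of the extracellular matrix, stood at 0.0833 and 0.223 CPM in abl, against 189.8 and 187 CPM in LNCaP (log2 difference -10.66 ± 0.19). Its abl libraries held 3 and 2 counts, so few that the standard error can be smaller than counting error. LAMB2, the laminin beta-2 chain, stood at 1.14 and 1.45 CPM in abl, against 423 and 385 CPM in LNCaP (log2 difference -8.38 ± 0.16). In all 3 the LNCaP libraries lay at 187 to 473 CPM. PEG3, an imprinted zinc finger gene, stood at 0.528 and 0.669 CPM in abl, against 197 and 161 CPM in LNCaP, and BCHE, the butyrylcholinesterase, at 1.44 and 1.23 CPM in abl, against 324 and 320.3 CPM in LNCaP. TMEFF2, a transmembrane protein enriched in prostate and brain, stood at 3.44 and 1.78 CPM in abl, against 699 and 589.8 CPM in LNCaP (log2 difference -7.72 ± 0.18, adjusted p = 3.04e-13). The vesicle protein SYT4, the glutamate receptor partner NETO1, the axonal kinesin KIF1A and the tubulin TUBB4 are known from neurons, and their log2 differences were -7.68 ± 0.16, -7.61 ± 0.14, -7.61 ± 0.19 and -8.20 ± 0.20. EFNB2, an ephrin ligand, and FAM65B complete the 12, at -7.75 ± 0.12 and -7.56 ± 0.20. All 12 were called lower under siCREB1 and siFOXA1 as well.

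Some genes were on in LNCaP and silent in abl, and fewer were the other way round. At most 3 counts over both abl libraries, with at least 3 CPM in each LNCaP library, were found for 44 genes. At most 3 counts in LNCaP with at least 3 CPM in each abl library were found for 16 genes, chromosome Y left out. All 44 and all 16 were called in the same direction under siCREB1, and 43 and 16 under siFOXA1. Of the 44, 30 had at most 6 counts over the 4 knockdown libraries of abl, and of the 16, 10 had at most 6 over those of LNCaP. The rule selects such genes for a low level in 1 line, so their difference under siControl is a description.

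The highest of the genes silent in abl was CBLN2, a secreted organiser of synapses, with 1 and 0 counts in abl, against 1944 and 1031 counts in LNCaP. Its ratio of LNCaP over abl was 3089.7 (95% counting interval 554 to 122078). BMPR1B, a type I receptor for bone morphogenetic proteins, had 1 and 1 counts in abl, against 1540 and 946 counts in LNCaP, a LNCaP over abl ratio of 1291 (95% counting interval 357 to 10666). The small GTPase DIRAS1 had 0 and 0 counts in abl, against 996 and 477 counts in LNCaP, so it was at least 509.9-fold lower in abl. The calcium channel CACNA1H had 2 and 1 counts in abl, against 1099 and 580 counts in LNCaP, and the potassium channel KCNH8 had 3 and 0 counts in abl, against 1195 and 979 counts in LNCaP. The rest of the 8 highest were KLHL1, an actin-binding protein, the ephrin receptor EPHA3 and the glycogenin GYG2. They had 1 to 3 counts over the abl libraries and 24.2 to 40.7 CPM in LNCaP.

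Of the genes silent in LNCaP, LRRTM1, a leucine-rich protein of synapses, was the highest in abl with 878 and 157 counts in abl, against 1 and 2 counts in LNCaP, an abl over LNCaP ratio of 332 (95% counting interval 113 to 1613). FLRT3, a leucine-rich adhesion protein, had 741 and 167 counts in abl, against 0 and 1 counts in LNCaP, an abl over LNCaP ratio of 874 (95% counting interval 157 to 34569.9). SLC25A43, of the mitochondrial carrier family, had 598 and 148 counts in abl, against 1 and 0 counts in LNCaP. PAPPA, a protease that cleaves binding proteins of insulin-like growth factors, had 303 and 81 counts in abl, against 2 and 0 counts in LNCaP. The cation channel TRPV3, the matrix protein FREM3, the membrane protein ITM2A and the nucleotide sugar transporter SLC35D1 followed at 5.86 to 12.9 CPM in the abl libraries. The counting intervals cover counting error alone.

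Genes of the integrated stress and protein folding response were higher in abl almost without exception. Of 33 tested, 32 were higher and 0 lower (97.0% higher, beside 30.5% of all tested genes), with a median of 2.15 beside -0.02 over all genes. The remaining member, the folding chaperone CALR, stood at 1752 and 1630.3 CPM in abl, against 1582 and 1569 CPM in LNCaP (log2 difference 0.10 ± 0.06, adjusted p = 0.157). ATF4, the factor at the centre of the response, stood at 1337 and 1305 CPM in abl, against 237 and 249 CPM in LNCaP, a log2 difference of 2.44 ± 0.06 (adjusted p = 4.44e-13). Its partner DDIT3, known as CHOP, stood at 275 and 344 CPM in abl, against 31.5 and 36.5 CPM in LNCaP (log2 difference 3.19 ± 0.12). The libraries of the lines did not overlap in either gene. TRIB3, a pseudokinase raised by ATF4, stood at 470.0 and 461 CPM in abl, against 70.5 and 58.6 CPM in LNCaP, and CHAC1, which degrades glutathione, at 180.2 and 177 CPM in abl, against 7.11 and 5.25 CPM in LNCaP. Their log2 differences were 2.84 ± 0.08 and 4.81 ± 0.13.

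SLC7A5, the importer of large neutral amino acids, stood at 1209 and 1240.2 CPM in abl, against 13.7 and 12.04 CPM in LNCaP (log2 difference 6.56 ± 0.11, adjusted p = 3.8e-14). SLC3A2, the heavy chain that SLC7A5 pairs with, had a log2 difference of 2.69 ± 0.14. SLC7A11, the cystine importer, stood at 967 and 1122 CPM in abl, against 69.3 and 71.1 CPM in LNCaP (log2 difference 3.89 ± 0.14), and SLC1A5, the glutamine carrier, at 413 and 414 CPM in abl, against 44.02 and 42.8 CPM in LNCaP (log2 difference 3.25 ± 0.08). The libraries of the lines lay far apart in each of these carriers. Enzymes of serine and asparagine synthesis went the same way. PHGDH, the entry enzyme of serine synthesis, stood at 1735 and 1757 CPM in abl, against 393 and 393 CPM in LNCaP, PSAT1 of the same pathway at 739.9 and 795 CPM in abl, against 173 and 172 CPM in LNCaP, and the asparagine synthetase ASNS at 463 and 529.6 CPM in abl, against 76.6 and 83.5 CPM in LNCaP. The log2 differences were 2.15 ± 0.06, 2.15 ± 0.06 and 2.63 ± 0.08. Members of the protein folding arm differed less: HSPA5, the main chaperone of the endoplasmic reticulum, by 0.99 ± 0.08, PDIA4 by 0.90 ± 0.07 and the splicing-activated factor XBP1 by 1.21 ± 0.06.

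Promoter letters are shown for 3 stress genes because the list moved together. The C/EBP-ATF response element, a composite site known to bind ATF4, was searched as TGATGNAA on both strands, in RefSeq promoters (GRCh38.p14) of 250 bases before to 50 after the gene start. It was found in 5 of the 28 stress genes that have a promoter in the table (17.9%), against 1.83% of 11597 promoters of tested genes and 3.67% of all 27305 promoters in the table. It was found in 4.75% of 1201 promoters of genes called higher by at least 1 on the log2 scale, and in 1.09% of 1463 of genes called lower by that much. The cAMP response element, searched as TGACGTCA, which reads the same on both strands, was found in 1 of the 28 (3.57%), PPP1R15A, and in 3.08% of promoters of tested genes. None of the 28 promoters held both motifs, and a match is a description of letters only. The stress list holds genes ATF4 is known to raise, so its higher share of C/EBP-ATF elements is partly built into the list. The 250 bases before the start of the 3 members with the largest difference among those with a match in that stretch follow, 5′ to 3′ on the gene's strand, with the match in capitals. In CHAC1 (chr15:40953221-40953470, plus strand) and HERPUD1 (chr16:56931892-56932141, plus strand) the match is on the opposite strand to the gene, and in ASNS (chr7:97872409-97872658, minus strand) it is on the gene's own strand.
CHAC1: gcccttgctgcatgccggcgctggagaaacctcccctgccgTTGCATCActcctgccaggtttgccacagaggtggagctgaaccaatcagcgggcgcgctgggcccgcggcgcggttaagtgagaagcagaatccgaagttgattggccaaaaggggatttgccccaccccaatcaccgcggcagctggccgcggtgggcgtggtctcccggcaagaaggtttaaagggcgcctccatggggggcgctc
ASNS: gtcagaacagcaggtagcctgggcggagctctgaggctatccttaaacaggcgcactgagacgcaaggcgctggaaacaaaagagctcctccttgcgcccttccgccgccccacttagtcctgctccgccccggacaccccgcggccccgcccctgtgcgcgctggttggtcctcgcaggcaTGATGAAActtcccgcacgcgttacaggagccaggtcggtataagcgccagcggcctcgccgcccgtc
HERPUD1: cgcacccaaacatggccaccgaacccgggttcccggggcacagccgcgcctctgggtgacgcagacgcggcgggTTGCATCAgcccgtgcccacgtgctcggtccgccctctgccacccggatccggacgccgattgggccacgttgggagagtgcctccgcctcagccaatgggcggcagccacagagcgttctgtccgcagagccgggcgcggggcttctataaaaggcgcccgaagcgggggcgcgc
The match ends 202 bases before the start in CHAC1, 61 in ASNS and 169 in HERPUD1. HERPUD1, which helps degrade misfolded proteins, stood at 528 and 534 CPM in abl, against 91.3 and 88.03 CPM in LNCaP (log2 difference 2.56 ± 0.09).

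The stress gene difference was much smaller in the knockdown libraries. The median of the 33 genes was 0.58 under siCREB1 and 0.27 under siFOXA1, and 19 and 18 of them were called higher in abl there, beside 31.6% of all tested genes under siCREB1 and 30.2% under siFOXA1. The change of the line difference between siControl and siCREB1 was called for 30 of the 33 genes, all with the larger value under siControl, beside 10.8% of all tested genes called in that direction. For siFOXA1 it was called for 30 of 33 as well, beside 14.7% of all tested genes. Both tests use the same siControl libraries. For CHAC1 the line difference was 4.81 under siControl, 1.11 under siCREB1 and 0.73 under siFOXA1, and for DDIT3 it was 3.19, 0.24 and 0.27. SLC7A5 kept most of its difference, at 5.65 and 5.29. SESN2, a stress-induced sestrin, changed sign, with 2.16, -0.68 and -1.09. Other genes outside the list with the same course were PCK2, the mitochondrial phosphoenolpyruvate carboxykinase, at 2.95, 0.05 and -0.04, and DDIT4, an inhibitor of mTOR signalling, at 2.58, 0.49 and 0.11.

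**Figure D3:**
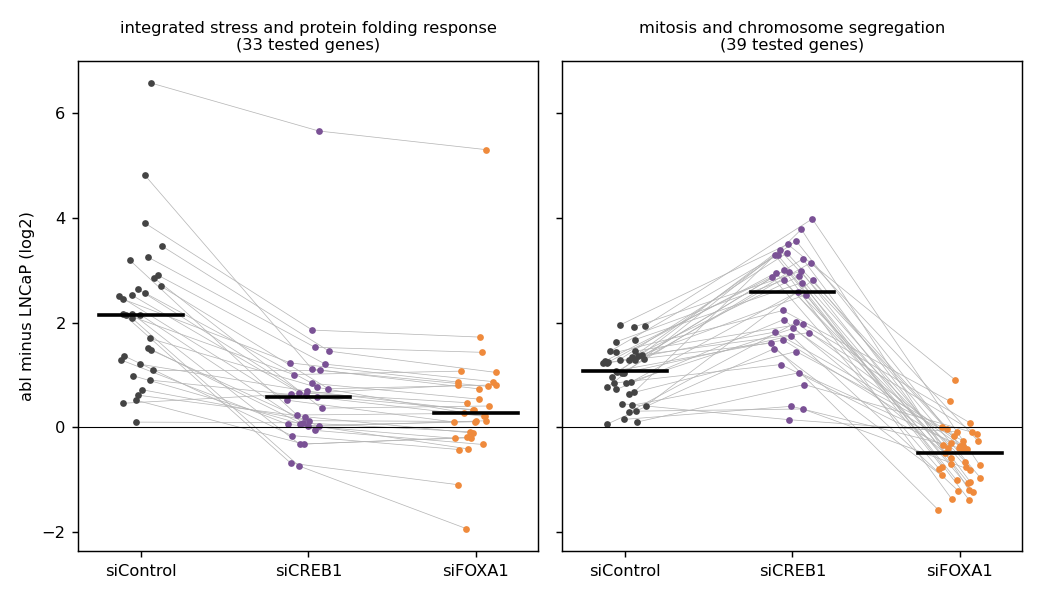
Line difference (abl minus LNCaP, log2) of each tested gene of the stress list (33 genes, left) and the mitosis list (39 genes, right) under siControl, siCREB1 and siFOXA1; each point is a gene, thin lines join the same gene and the thick bar is the median. The stress medians are 2.15, 0.58 and 0.27, and the mitosis medians are 1.08, 2.59 and -0.48.

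Under siControl mitosis genes were higher in abl, whereas DNA replication genes as a list were not. Of 39 tested mitosis genes, 35 were higher and 0 lower in abl (89.7% higher, beside 30.5% of all tested genes), with a median of 1.08. BUB1, a kinase of the spindle checkpoint, stood at 62.6 and 56.7 CPM in abl, against 16.7 and 13.9 CPM in LNCaP (log2 difference 1.96 ± 0.13, adjusted p = 1.09e-08). The mitotic kinase PLK1 stood at 70.6 and 67.98 CPM in abl, against 27.6 and 22.6 CPM in LNCaP, and the kinesin KIF2C at 64.4 and 59.2 CPM in abl, against 17.8 and 14.9 CPM in LNCaP, with log2 differences of 1.46 ± 0.15 and 1.91 ± 0.16. CDK1, the kinase that drives entry into mitosis, did not pass at 54.01 and 48.4 CPM in abl, against 52.3 and 46.1 CPM in LNCaP, nor did the cyclin CCNA2, at 20.3 and 20.4 CPM in abl, against 16.7 and 16.5 CPM in LNCaP. CCNA2 passed with the 4 siControl libraries alone, at a log2 difference of 0.31 (adjusted p = 0.0342, and 0.0247 to 0.283 over its alternatives). Under siCREB1 38 of the 39 were higher and 0 lower (31.6% and 30.1% of all tested genes), with a median of 2.59. Under siFOXA1 24 were lower, beside 30.9% of all tested genes, and 2 were higher, with a median of -0.48. The change was called for 32 of the 39 against siCREB1, all with the smaller value under siControl (beside 14.8% of all tested genes), and for 37 against siFOXA1, all with the larger value under siControl (beside 14.7%). Of 36 tested DNA replication genes, 6 were higher and 15 lower under siControl, with a median of -0.20. These were 16.7% and 41.7%, beside 30.5% and 33.1% of all tested genes. The replication factor GINS2 stood at 2.53 and 3.34 CPM in abl, against 7.33 and 6.15 CPM in LNCaP, and the helicase subunit MCM7 at 52.7 and 59.5 CPM in abl, against 84.7 and 95.7 CPM in LNCaP, with log2 differences of -1.31 ± 0.22 and -0.70 ± 0.10. The polymerase subunit POLE was higher at 139.6 and 169 CPM in abl, against 39.8 and 40.2 CPM in LNCaP, as was the licensing factor CDC6 at 24.9 and 22.1 CPM in abl, against 8.31 and 9.74 CPM in LNCaP. Of the 36 replication genes, 27 were higher and 1 lower under siCREB1, with a median of 0.76. Under siFOXA1 1 was higher and 27 lower, with a median of -0.47. Of all tested genes, 31.6% were higher and 30.1% lower under siCREB1, and 30.2% and 30.9% under siFOXA1. Among 26 tested G1 regulators, 7 were higher and 11 lower under siControl (26.9% and 42.3%, beside 30.5% and 33.1% of all tested genes). CDKN1C, an inhibitor of cyclin-dependent kinases, stood at 0.139 and 0.111 CPM in abl, against 7.40 and 5.64 CPM in LNCaP (log2 difference -5.58 ± 0.34), and CDK6 at 0.250 and 0.446 CPM in abl, against 2.82 and 2.56 CPM in LNCaP. CDKN1C had 5 and 1 counts in abl. Of 29 tested DNA repair genes, 12 were higher and 9 lower, among them MSH6 with a log2 difference of -0.92 ± 0.09 and BRCA1 with 1.05 ± 0.17.

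**Figure D4:**
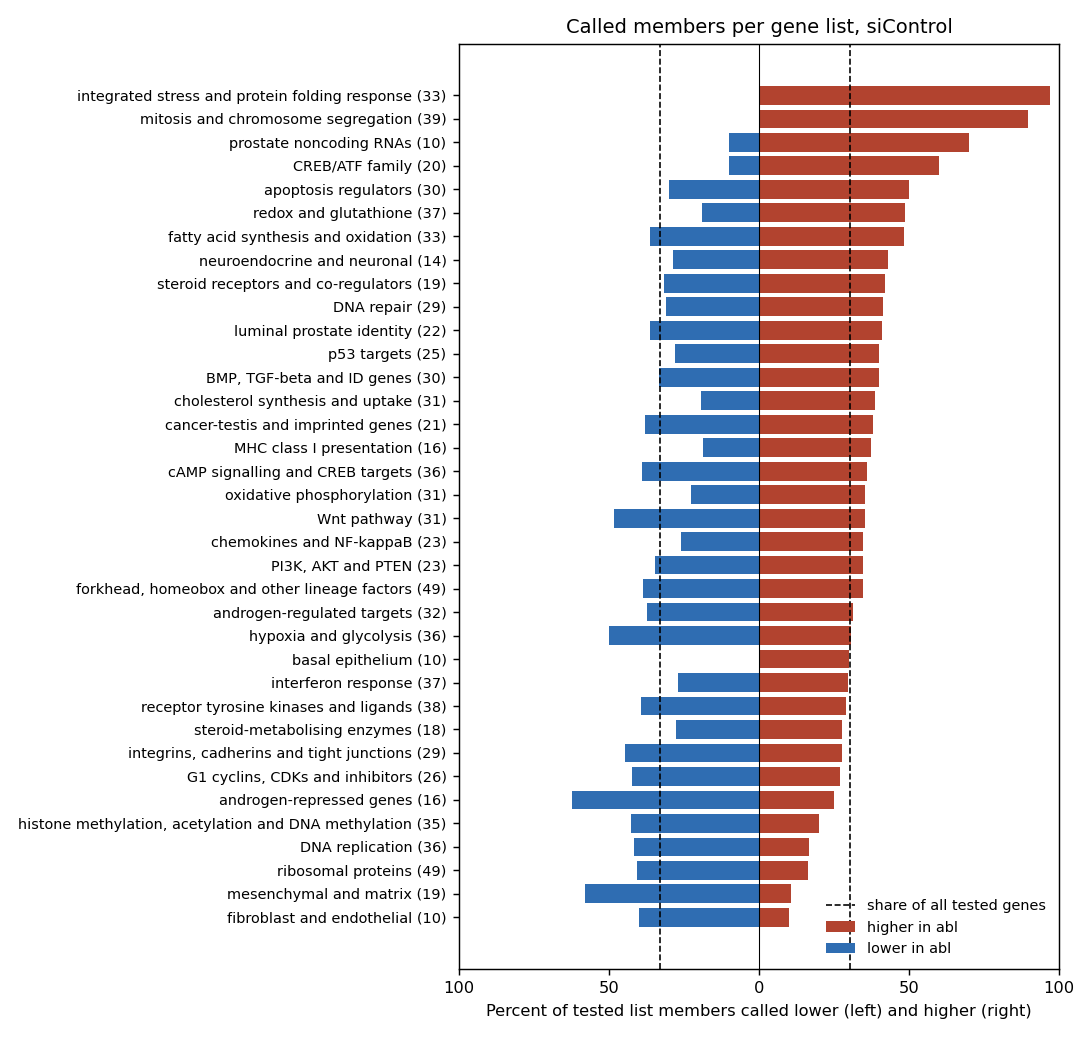
Percent of the tested members of each gene list called lower (left) and higher (right) in abl under siControl, for the lists with at least 10 tested genes (number in brackets), with dashed lines at the shares of all tested genes, 33.1% lower and 30.5% higher. The stress and mitosis lists have no member called lower, and the androgen-repressed and mesenchymal lists have 62.5% and 57.9% called lower.

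Of 37 tested redox and glutathione genes, 18 were higher and 7 lower in abl (48.6% and 18.9%, beside 30.5% and 33.1% of all tested genes), with a median of 0.16. Beside NNT, the NADPH-producing enzyme IDH1 stood at 1260.3 and 1325 CPM in abl, against 278 and 278 CPM in LNCaP, and ME1 at 344 and 382 CPM in abl, against 72.9 and 70.02 CPM in LNCaP, with log2 differences of 2.22 ± 0.08 and 2.34 ± 0.08. GCLC, the catalytic subunit that starts glutathione synthesis, stood at 232 and 255 CPM in abl, against 55.1 and 56.2 CPM in LNCaP (log2 difference 2.13 ± 0.12). TXN, thioredoxin, was lower at 47.6 and 45.1 CPM in abl, against 99.2 and 108 CPM in LNCaP, a log2 difference of -1.15 ± 0.08 that was -0.04 under siCREB1 and -0.09 under siFOXA1. The glutathione transferase GSTT2 has a near-identical copy and is uncertain.

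Of 33 tested fatty acid genes, 16 were higher and 12 lower in abl (48.5% and 36.4%, beside 30.5% and 33.1% of all tested genes). The desaturase SCD was higher at 3151 and 3331 CPM in abl, against 1085 and 1036 CPM in LNCaP, and its paralog SCD5 lower at 4.36 and 3.68 CPM in abl, against 58.5 and 54.9 CPM in LNCaP, with log2 differences of 1.61 ± 0.11 and -3.76 ± 0.12. FASN, the fatty acid synthase, stood at 1329 and 991 CPM in abl, against 2357 and 1635 CPM in LNCaP, a log2 difference of -0.78 ± 0.21 (adjusted p = 0.00556) with the opposite sign under siCREB1 (0.71) and siFOXA1 (1.21). Its call was lost without the second abl library (-0.58, adjusted p = 0.0667) and without the first LNCaP library (-0.47, adjusted p = 0.0792). Of 31 tested cholesterol genes, 12 were higher and 6 lower, with a median of 0.03. The exporter ABCA1 was higher at 63.6 and 72.7 CPM in abl, against 17.9 and 17.9 CPM in LNCaP. Of 36 tested glycolysis and hypoxia genes, 11 were higher and 18 lower. LDHB, a lactate dehydrogenase subunit, stood at 6.45 and 7.24 CPM in abl, against 277 and 302 CPM in LNCaP (log2 difference -5.44 ± 0.12, adjusted p = 1.45e-13), with -5.11 and -5.40 under the 2 knockdowns. VEGFA, the vascular growth factor, was higher at 365 and 415 CPM in abl, against 78.7 and 95.5 CPM in LNCaP. Respiratory chain subunits differed little under siControl: 11 of 31 were higher and 7 lower (35.5% and 22.6%), and none by 1 or more on the log2 scale. Under siCREB1 24 were higher and 0 lower, with a median of 0.38. Under siFOXA1 26 were higher and 1 lower, with a median of 0.53. Of all tested genes, 31.6% and 30.2% were higher under siCREB1 and siFOXA1.

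Of 38 tested receptor tyrosine kinases and ligands, 11 were higher and 15 lower in abl (28.9% and 39.5%, near the 30.5% and 33.1% of all tested genes). The ephrin receptor EPHA7 stood at 0.0833 and 0.111 CPM in abl, against 53.8 and 51.8 CPM in LNCaP (log2 difference -9.13 ± 0.19, adjusted p = 1.12e-13). EPHA7 had 3 and 1 counts in abl, so its standard error can be smaller than counting error. With EPHA3 and the ligand EFNB2 above, and EPHB2 at 0.750 and 0.557 CPM in abl, against 20.04 and 18.5 CPM in LNCaP, 4 ephrin family members named here were lower in abl, while EPHA4, 1 of the 16 genes silent in LNCaP and named after its values were seen, stood at 4.86 and 4.46 CPM in abl, against 0.0361 and 0 CPM in LNCaP. EGF, the epidermal growth factor, was higher at 125 and 125 CPM in abl, against 8.81 and 7.75 CPM in LNCaP (log2 difference 3.90 ± 0.08). IGFBP3, a binding protein of insulin-like growth factors, was higher at 211 and 179.5 CPM in abl, against 4.88 and 4.23 CPM in LNCaP, and IGF1 itself at 18.3 and 21.4 CPM in abl, against 3.21 and 3.65 CPM in LNCaP. The fibroblast growth factor receptor FGFR2 stood at 17.8 and 17.6 CPM in abl, against 2.13 and 2.31 CPM in LNCaP. Of 23 tested genes of PI3K signalling, 8 were higher and 8 lower, and the forkhead factor FOXO1 was lower at 2.00 and 2.01 CPM in abl, against 14.7 and 17.04 CPM in LNCaP (log2 difference -2.98 ± 0.19).

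In the BMP and TGF-beta list, the ligand BMP2 and ID genes were higher while BMPR1B and TGFBR2 were lower. Of 30 tested, 12 were higher and 10 lower. The ligand BMP2 stood at 38.8 and 27.7 CPM in abl, against 0.108 and 0.0641 CPM in LNCaP (log2 difference 8.46 ± 0.47, adjusted p = 1.9e-09). ID1, ID2 and ID3, which BMP signalling raises and which block helix-loop-helix factors, had log2 differences of 5.55 ± 0.93, 1.81 ± 0.32 and 3.24 ± 0.60. ID1 stood at 19.9 and 16.05 CPM in abl, against 0.506 and 0.192 CPM in LNCaP. Besides BMPR1B, TGFBR2, a TGF-beta receptor, was lower at 0.0556 and 0.223 CPM in abl, against 2.38 and 2.18 CPM in LNCaP (log2 difference -4.59 ± 0.50). In the Wnt list 11 of 31 tested were higher and 15 lower, with a median of -0.21, or -0.15 with genes at 0 at their bound. The ligand WNT5A stood at 384 and 374 CPM in abl, against 16.4 and 13.2 CPM in LNCaP (log2 difference 4.66 ± 0.10, adjusted p = 1.12e-13), its receptor ROR2 at 28.8 and 26.5 CPM in abl, against 7.98 and 5.32 CPM in LNCaP, and the nuclear factor LEF1 at 44.1 and 42.9 CPM in abl, against 9.93 and 8.78 CPM in LNCaP. All 3 were higher in both abl libraries. The Wnt inhibitor NKD1 was lower at 0.528 and 0.334 CPM in abl, against 5.78 and 5.83 CPM in LNCaP.

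In the CREB and ATF family most members were higher in abl under siControl, 5 of them by 1 or more on the log2 scale. Of 20 tested CREB and ATF family genes, 12 were higher and 2 lower in abl (60% and 10%, beside 30.5% and 33.1% of all tested genes), and this list shares ATF4 and DDIT3 with the stress list. ATF3 stood at 85.9 and 96.5 CPM in abl, against 24.99 and 25.6 CPM in LNCaP, and the membrane-bound factor CREB3L2 at 178 and 177 CPM in abl, against 51.2 and 45.6 CPM in LNCaP, with log2 differences of 1.84 ± 0.09 and 1.87 ± 0.08. The difference of ATF3 was -0.09 under siCREB1 and -0.31 under siFOXA1, and that of CREB3L2 was 1.78 and 1.72. CREB5 was lower at 0.50 and 0.446 CPM in abl, against 6.83 and 6.41 CPM in LNCaP. Over the 20 CREB and ATF genes, 5 were higher and 8 lower under siCREB1, and 4 higher and 8 lower under siFOXA1. The medians were -0.09 and -0.09, against 0.32 under siControl. Of all tested genes, 31.6% were higher and 30.1% lower under siCREB1, and 30.2% and 30.9% under siFOXA1. Of 36 tested cAMP signalling genes, 13 were higher and 14 lower under siControl (36.1% and 38.9%, beside 30.5% and 33.1% of all tested genes). PRKACB, a catalytic subunit of protein kinase A, stood at 484 and 469 CPM in abl, against 1683 and 1698 CPM in LNCaP (log2 difference -1.83 ± 0.08) and the adenylate cyclase ADCY1 at 13.3 and 14.6 CPM in abl, against 92.1 and 72.4 CPM in LNCaP.

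Of 49 tested forkhead, homeobox and other lineage factors, 17 were higher and 19 lower in abl (34.7% and 38.8%, near the 30.5% and 33.1% of all tested genes). SOX9 and SOX4 are of the SRY-related family. SOX9 stood at 1.33 and 1.11 CPM in abl, against 21.96 and 21.1 CPM in LNCaP, and SOX4 at 79.6 and 76.8 CPM in abl, against 603 and 469 CPM in LNCaP, with log2 differences of -4.06 ± 0.18 and -2.78 ± 0.14. RUNX1 stood at 5.53 and 5.80 CPM in abl, against 0.578 and 0.384 CPM in LNCaP, and RUNX2 at 7.56 and 6.46 CPM in abl, against 1.12 and 1.09 CPM in LNCaP. The posterior homeobox gene HOXA13 stood at 25.6 and 26.6 CPM in abl, against 0.578 and 0.320 CPM in LNCaP (log2 difference 5.73 ± 0.16, adjusted p = 1.86e-12), and HOXC9 at 0.333 and 0.223 CPM in abl, against 17.98 and 14.4 CPM in LNCaP (log2 difference -5.70 ± 0.28). Of 35 tested chromatin regulators, 7 were higher and 15 lower. SMARCA2, a helicase of the SWI/SNF complex, was higher at 266 and 254 CPM in abl, against 85.5 and 84.8 CPM in LNCaP, and the histone methyltransferase EZH2 at 42.8 and 45.2 CPM in abl, against 19.4 and 23.2 CPM in LNCaP. In the cancer-testis and imprinted list of 21, 8 were higher and 8 lower. PAGE1 stood at 115 and 116.01 CPM in abl, against 1.63 and 1.41 CPM in LNCaP, and CTAG2 at 55.8 and 50.5 CPM in abl, against 0.831 and 0.513 CPM in LNCaP, with log2 differences of 6.22 ± 0.09 and 6.22 ± 0.16. MAGE and CTAG genes have close copies, so their counts are uncertain.

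Matrix and mesenchymal genes were mostly lower in abl. Of 19 tested, 11 were lower and 2 higher (57.9% lower, beside 33.1% of all tested genes), with a median of -2.40, or -1.93 with genes at 0 at their bound. MSN, the membrane linker moesin, stood at 0.889 and 0.111 CPM in abl, against 95.9 and 98.1 CPM in LNCaP (log2 difference -7.05 ± 0.21, adjusted p = 3.14e-12). The collagen gene COL6A2 stood at 1.22 and 1.00 CPM in abl, against 119 and 106 CPM in LNCaP, and COL5A1 at 0.139 and 0.111 CPM in abl, against 16.8 and 16.8 CPM in LNCaP, with log2 differences of -6.58 ± 0.15 and -6.92 ± 0.24. COL5A1 had 5 and 1 counts in abl, so its standard error can be smaller than counting error. TWIST1, a factor of mesenchymal cells, had 0 and 0 counts in abl, against 141 and 53 counts in LNCaP, and was at least 67.2-fold lower in abl. Vimentin, VIM, stood at 11.1 and 6.69 CPM in abl, against 60.2 and 49.5 CPM in LNCaP. ZEB1 and SNAI1, also mesenchymal factors, were the 2 higher ones, at 1.47 CPM or less in every library. The fibroblast and endothelial list, which shares collagens and other genes with it, summed to 23.6 and 24.6 CPM in abl, against 101 and 108 CPM in LNCaP, with 1 of 16 genes at 0 in all 4 libraries. The fibroblast marker COL1A2 was at 0 in all 4 libraries and FAP had 1 count in all 4 together, while COL1A1 stood at 8.36 and 10.7 CPM in abl, against 53.4 and 61.6 CPM in LNCaP, and the von Willebrand factor VWF at 0.778 and 0 CPM in abl, against 30.7 and 27.7 CPM in LNCaP. The fitted difference of VWF was -5.57, and -12.35 without the first abl library, which leaves 0 counts in abl. The part of such cells in the mesenchymal result was not tested.

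Adhesion genes changed on both sides, with most of the large changes lower in abl. Of 29 tested, 8 were higher and 13 lower (27.6% and 44.8%, beside 30.5% and 33.1% of all tested genes). By at least 1 on the log2 scale, 3 were higher and 9 lower. P-cadherin, CDH3, stood at 0.139 and 0.111 CPM in abl, against 25.5 and 27.6 CPM in LNCaP (log2 difference -7.58 ± 0.27), and E-cadherin, CDH1, at 1483 and 1570.1 CPM in abl, against 820.1 and 826 CPM in LNCaP (log2 difference 0.89 ± 0.06). CDH3 had 5 and 1 counts in abl, so its standard error can be smaller than counting error. The tight junction genes moved apart, with CLDN3 at 1.83 and 1.67 CPM in abl, against 54.4 and 32.5 CPM in LNCaP, and CLDN7 at 360.4 and 358 CPM in abl, against 155 and 149 CPM in LNCaP. The basal markers KRT5 and TP63 had at most 1 count in all 4 libraries together, and 3 of 10 tested basal genes were higher, among them the laminin chain LAMA3 at 335 and 324 CPM in abl, against 47.9 and 44.97 CPM in LNCaP. Of the neuroendocrine markers, INSM1 was at 0 counts in all 4 libraries and CHGA had 3 and 0 counts in abl, against 1 and 0 counts in LNCaP. Of 14 tested neuroendocrine and neuronal genes, 6 were higher and 4 lower in abl. The adhesion molecule NCAM1 stood at 30.3 and 29.4 CPM in abl, against 0.361 and 0.320 CPM in LNCaP (log2 difference 6.41 ± 0.25) and the neuronal tubulin TUBB3 at 1.08 and 0.446 CPM in abl, against 88.9 and 67.9 CPM in LNCaP (log2 difference -6.37 ± 0.21).

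Of 37 tested interferon genes, 11 were higher and 10 lower in abl (29.7% and 27%, near the 30.5% and 33.1% of all tested genes), with a median of 0.01, which was -1.03 under siCREB1 and -1.58 under siFOXA1. The transmembrane protein IFITM2 stood at 0.778 and 0.780 CPM in abl, against 14.7 and 14.99 CPM in LNCaP (log2 difference -4.24 ± 0.17), and IRF1, an interferon-regulated factor, at 21.7 and 22.1 CPM in abl, against 7.80 and 7.82 CPM in LNCaP. The MHC class I list had 6 of 16 higher and 3 lower, the chemokine and NF-kappaB list 8 of 23 higher and 6 lower, and the p53 target list 10 of 25 higher and 7 lower, set against the same shares of all tested genes. Of 30 tested apoptosis regulators, 15 were higher and 9 lower. The pro-apoptotic gene BAX stood at 4.78 and 6.02 CPM in abl, against 21.8 and 20.7 CPM in LNCaP (log2 difference -2.06 ± 0.13) and BOK at 5.72 and 4.90 CPM in abl, against 56.4 and 47.9 CPM in LNCaP. Of 49 tested ribosomal protein genes, 8 were higher and 20 lower under siControl (16.3% and 40.8%), none by 1 or more on the log2 scale. Under siCREB1 26 were higher and 3 lower, and under siFOXA1 33 were higher and 2 lower. Of all tested genes, 31.6% and 30.2% were higher under siCREB1 and siFOXA1. Of 10 tested prostate noncoding RNAs, 7 were higher and 1 lower. MALAT1 stood at 2298 and 2600.3 CPM in abl, against 366 and 802 CPM in LNCaP, so its LNCaP libraries themselves lie far apart, and PCGEM1 had 0 and 0 counts in abl, against 87 and 50 counts in LNCaP, at least 47.4-fold lower in abl.

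Among the most abundant genes that differed by at least 1 on the log2 scale, FTH1, the ferritin heavy chain, stood at 5645 and 5729 CPM in abl, against 2359.9 and 2094 CPM in LNCaP (log2 difference 1.35 ± 0.07). SQSTM1, an autophagy receptor, stood at 2278 and 2215 CPM in abl, against 936 and 879.9 CPM in LNCaP, the selenium-binding SELENBP1 at 2311 and 2674 CPM in abl, against 987 and 1019.9 CPM in LNCaP, and the RNA-binding HDLBP at 2358 and 2323 CPM in abl, against 1067 and 1085 CPM in LNCaP. MTRNR2L2, FTH1 and TUBB have close copies elsewhere in the genome, so their counts are uncertain. SPON2, a secreted matrix protein, had the largest fall of this kind at 15.3 and 7.47 CPM in abl, against 2183 and 1718 CPM in LNCaP (log2 difference -7.25 ± 0.22, adjusted p = 3.05e-12). MYO6, an unconventional myosin, stood at 557 and 544 CPM in abl, against 1635 and 1646 CPM in LNCaP, and the tubulin TUBB at 564 and 546 CPM in abl, against 1555 and 1487 CPM in LNCaP, whose log2 difference of -1.45 ± 0.07 was -0.37 under siCREB1 and -0.26 under siFOXA1. The receptor GPR126 and MARCKSL1, a substrate of protein kinase C, were also lower, with log2 differences of -2.11 ± 0.08 and -1.63 ± 0.06.

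The median line difference varied between chromosomes. Of the tested genes, 14760 (94.9%) matched 1 entry of the RefSeq table, which gives their chromosome and order. The median log2 difference was -0.44 for 597 genes on chromosome 9 and -0.40 for 200 genes on chromosome 18, with 59.6% and 54.0% of them called lower. On chromosome 8 it was 0.26 over 514 genes, on chromosome 2 it was 0.23 over 940 and on chromosome 4 it was 0.21 over 550. The 4 pairings of an abl with a LNCaP library gave -0.43 to -0.36 for chromosome 9 and 0.20 to 0.27 for chromosome 8, on log2(CPM + 0.5). The signs were the same in the other libraries, with -0.37 and -0.44 for chromosome 9 under siCREB1 and siFOXA1, -0.49 and -0.52 for chromosome 18, and 0.24 and 0.18 for chromosome 8. These medians are descriptions with no test, and genes of a chromosome share the libraries. Copy number was not analysed here.

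**Figure D5:**
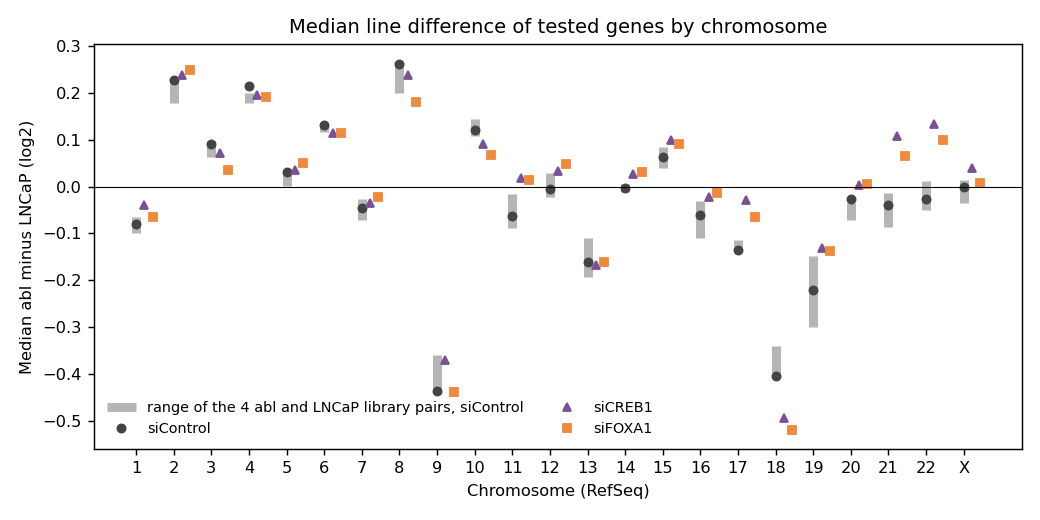
Median abl minus LNCaP difference (log2) of the tested genes on each chromosome, chromosome Y left out, under siControl, siCREB1 and siFOXA1; grey bars span the 4 pairings of an abl with a LNCaP library under siControl on log2(CPM + 0.5). Chromosomes 9 and 18 lie lowest, at -0.44 and -0.40 under siControl, and chromosome 8 highest, at 0.26.

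Some differences came in blocks of neighbouring genes. A search for at least 5 consecutive tested neighbours, all called in the same direction by at least 1 on the log2 scale, found 18 blocks outside chromosome Y, 4 higher and 14 lower in abl. The blocks described were chosen after their values were seen. The longest held 12 genes on chromosome 7, from HOTAIRM1 to EVX1, which is the HOXA cluster of homeobox genes, with a median of 2.63. Of 9 tested HOXA genes, 8 were higher and 0 lower. HOXA4 stood at 6.58 and 6.58 CPM in abl, against 0.181 and 0.128 CPM in LNCaP, and HOXA5 at 14.2 and 13.04 CPM in abl, against 2.42 and 1.73 CPM in LNCaP, and HOTTIP, a noncoding RNA of the same cluster, at 2.97 and 3.34 CPM in abl, against 0 and 0.128 CPM in LNCaP. The fitted difference of HOTTIP was 5.90, and 9.24 without the second LNCaP library, which leaves 0 counts in LNCaP. Of these 12 genes, 11 were called higher under siCREB1 and 12 under siFOXA1. Antisense neighbours in the cluster cannot be told apart without strand. The HOXB genes went another way, with 2 of 7 higher and 4 lower.

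A block of 10 genes on chromosome 3, from PHLDB2 to CCDC80, was higher with a median of 4.75. It held CD200, an immune inhibitory ligand, at 63.4 and 65.3 CPM in abl, against 3.50 and 3.27 CPM in LNCaP, and ATG3, an enzyme of autophagy, at 312 and 311 CPM in abl, against 58.1 and 56.9 CPM in LNCaP. All 10 were called higher under both knockdowns. The protocadherins on chromosome 5, adhesion proteins in tandem copies, were lower: of 17 tested PCDHB genes 16 were lower and 0 higher, with a median of -2.99, and of 20 tested PCDHG genes 16 were lower and 1 higher. PCDHB5 stood at 1.31 and 1.89 CPM in abl, against 63.6 and 58.2 CPM in LNCaP, and PCDHB2 at 0.972 and 1.45 CPM in abl, against 26.7 and 23.3 CPM in LNCaP. Members of this family are similar in sequence and PCDHG transcripts share exons, so their counts are not independent. A block of 6 genes on chromosome 16, from GNG13 to TPSG1, was lower with a median of -5.52, or -3.72 with TPSG1, at 0 counts in abl, at its bound of 3 counts, and held SOX8 at 0.111 and 0 CPM in abl, against 11.7 and 9.29 CPM in LNCaP beside CACNA1H. The fitted difference of SOX8 was -6.82, and -10.89 without the first abl library, which leaves 0 counts in abl. A block of 6 genes on chromosome 4, from RRH to C4orf32, was higher and held EGF.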

How the data were processed

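RNA was measured by sequencing in LNCaP-abl and LNCaP cells after siControl, siCREB1 or siFOXA1, with 2 columns a group, 12 libraries in all. The authors deposited raw counts of reads per gene. Per the submitters' processing notes, CASAVA 1.8, TopHat2 2.0.8, Bowtie2 2.1.0, HTSeq 0.5.3p9 and the build hg19 were used; annotation and strand setting are not given in the sources used here. Of the column labels, SIC was read as siControl, and 8 of 8 control columns repeated between tables were identical. Reads in no gene (54.8% to 58.3%) and ambiguous reads (0.77% to 0.92%) were left out of library sizes.

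Counts of all 12 libraries (6 groups) were fitted with edgeR 4.0.16 (R 4.3.3, limma 3.58.1): filterByExpr, TMM, quasi-likelihood F-test, Benjamini-Hochberg adjustment over all 15550 tested genes, called at an adjusted p below 0.05. The standard error is the log2 difference divided by the square root of F. Differences between siRNAs in the line difference are interaction contrasts of the same fit, chosen after values were seen. The common coefficient of variation was 0.0625, with 6 residual degrees of freedom. On simulated data with 50 genes at each change, 48, 43, 44 and 50 were called at -2, -1, 1 and 2 on the log2 scale, with 4 false calls among 15174 genes. Far more genes were called in the measured libraries. The share of false calls among them was not tested.

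Named genes were the 12 largest rises and 12 largest falls whose log2 CPM averaged 3 or more, with no overlap, the 8 highest genes a direction with at most 3 counts in a line and at least 3 CPM in each library of the other, the 6 most abundant genes a direction past 1 on the log2 scale, the 3 largest changes of each of 37 gene lists with members needed to describe the list, and marker genes; some of these are not reported here. The members and lists were chosen with earlier results of these data known. Ratios for 1 to 3 counts carry 95% exact counting intervals, and genes at 0 take a bound of 3 counts summed over that line's libraries. Alternatives were other scalings, filters, DESeq2 1.42.0, the 4 siControl libraries alone, each library left out, and replicate blocks. Peak files and the authors' tables of comparisons were not used, and CREB1 peaks are not analysed here.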

Additional observations from a re-analysis of the deposited data

Results flagged for a closer look

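The line difference, abl minus LNCaP on the log2 scale, was called with opposite signs under siControl and under a knockdown for the following 20 of the named gene and knockdown pairs. Over all genes called under siControl, 415 had the opposite call under siCREB1 and 682 under siFOXA1. The pairs were selected for opposite calls in the same fit. The adjusted p-values below describe these selected pairs and are not separate evidence for a change. Each change of the line difference was tested as an interaction in edgeR's quasi-likelihood model with Benjamini-Hochberg adjustment over all tested genes. Of all tested genes, 25.5% were called for siCREB1 and 32.6% for siFOXA1. Both tests use the same siControl libraries.

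CLDN7, a tight junction claudin, differed by -0.34 under siCREB1 and by 1.24 under siControl (adjusted p = 3.73e-07). FASN, the fatty acid synthase, differed by 0.71 under siCREB1 and by -0.78 under siControl (adjusted p = 0.00261). GINS2, a replication factor, differed by 0.85 under siCREB1 and by -1.31 under siControl (adjusted p = 0.00014). MCM7, a replicative helicase subunit, differed by 0.73 under siCREB1 and by -0.70 under siControl (adjusted p = 7.96e-06). OR51E1, an odorant receptor, differed by 1.07 under siCREB1 and by -1.58 under siControl (adjusted p = 5.06e-05). RSAD2, an interferon-induced antiviral protein, differed by -1.11 under siCREB1 and by 2.16 under siControl (adjusted p = 0.0129). SESN2, a stress-induced sestrin, differed by -0.68 under siCREB1 and by 2.16 under siControl (adjusted p = 2.2e-08). VEGFA, a vascular growth factor, differed by -0.32 under siCREB1 and by 2.17 under siControl (adjusted p = 1.69e-07). In these genes abl and LNCaP exchanged their order under siCREB1.

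ACPP, the prostatic acid phosphatase, differed by 2.18 under siFOXA1 and by -1.55 under siControl (adjusted p = 1.98e-08). ADM, the peptide hormone adrenomedullin, differed by 1.20 under siFOXA1 and by -2.03 under siControl (adjusted p = 1.19e-06). ATF3, a stress-induced ATF factor, differed by -0.31 under siFOXA1 and by 1.84 under siControl (adjusted p = 4.02e-08). ATP5G1, a subunit of ATP synthase, differed by 0.30 under siFOXA1 and by -0.70 under siControl (adjusted p = 3.07e-05). EZH2, a histone methyltransferase, differed by -0.39 under siFOXA1 and by 1.05 under siControl (adjusted p = 5.28e-06). FASN, the fatty acid synthase, differed by 1.21 under siFOXA1 and by -0.78 under siControl (adjusted p = 0.000211). HSPA5, a chaperone of the endoplasmic reticulum, differed by -0.41 under siFOXA1 and by 0.99 under siControl (adjusted p = 1.07e-06). KIF2C, a mitotic kinesin, differed by -1.06 under siFOXA1 and by 1.91 under siControl (adjusted p = 1.31e-06). MSMB, a secreted prostate protein, differed by -1.60 under siFOXA1 and by 2.76 under siControl (adjusted p = 0.00438). OR51E1, an odorant receptor, differed by 2.33 under siFOXA1 and by -1.58 under siControl (adjusted p = 5.78e-06). PLK1, a mitotic kinase, differed by -0.48 under siFOXA1 and by 1.46 under siControl (adjusted p = 2.29e-05). SESN2, a stress-induced sestrin, differed by -1.09 under siFOXA1 and by 2.16 under siControl (adjusted p = 3.99e-09). In these genes the order of the lines was reversed under siFOXA1. The siControl calls of MSMB and RSAD2 were lost without the first abl library, that of RSAD2 also without the first (adjusted p = 0.0809) or the second LNCaP library (0.053), and that of FASN without the second abl or the first LNCaP library.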

How the results depend on the processing

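The count of genes called under siControl, 9896, was 9870 with DESeq2 size factors, 9947 with library size only, 9998 without a filter, 9520 with at least 1 CPM in 2 libraries, 8967 by DESeq2 and 8783 with the 4 siControl libraries alone. It ran between 8306 and 9551 when 1 library was left out. Library size only moved the median of all genes to -0.12 under siFOXA1, against 0.01 with TMM, and the share of calls higher in abl to 37.7% under siFOXA1 and 40.8% under siCREB1, beside 49.4% and 51.2% with TMM. No called result changed sign under these alternatives.

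Some chromosome medians moved by more than the spread of the library pairs. With library size only they were 0.17 for chromosome 2, 0.15 for chromosome 4, 0.20 for chromosome 8, -0.50 for chromosome 9 and -0.47 for chromosome 18. For chromosome 4 the median was 0.24 with DESeq2 size factors, 0.23 with at least 1 CPM in 2 libraries, 0.24 by DESeq2 and 0.25 with the 4 siControl libraries alone. For chromosome 18 it was -0.38 by DESeq2 and -0.37 with those 4 libraries. With 1 library left out it ran from 0.22 to 0.26 for chromosome 2, 0.20 to 0.23 for chromosome 4, -0.49 to -0.38 for chromosome 9 and -0.41 to -0.37 for chromosome 18. The median of all tested genes moved too. It was -0.02 in the main fit and -0.08 with library size only. With DESeq2 size factors it was 0.002, by DESeq2 0.004 and with the 4 siControl libraries alone 0.002. The cause of the chromosome shifts was not tested.

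With the library number as a replicate block the calls were 10002 across all libraries and 10388 within each siRNA. The labels do not say that the numbers mark a shared day or batch. For the libraries of number 1, deviations of each gene's log2 CPM from its group mean were correlated between the lines. The correlations were 0.23 under siControl, 0.037 under siCREB1 and 0.026 under siFOXA1. CCNA2 passed the test with the block within siRNA, at a log2 difference of 0.29, and with the 4 siControl libraries alone, at 0.31. Without the first abl library the calls of ERAP2, ITGB2, MSMB, PTPRC, RSAD2 and TCF7L1 were lost, and that of RSAD2 also without either LNCaP library. Without the first LNCaP library CSF3R, KRT14, S100A8 and S100A9 were called. The depth of the second abl library limits values under about 0.111 CPM, the level of 1 count.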
